A study of Mus musculus with 90 samples.

Results

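The livers of fed mice that had received S961, a peptide antagonist of the insulin receptor, were compared with those of fed mice that had received vehicle. The comparison rests on the columns of 4 libraries labelled ZT14 fed S961 and 4 labelled ZT14 fed PBS, which are 8 of the 54 RNA libraries and of the 90 samples of the series, and it covers every gene and both directions. All 8 mice were wild-type males of 10 weeks, C57BL/6 in the labels and C57BL/6N in the methods of the study, that were used to food in the dark phase (night-restricted feeding). They were injected intraperitoneally with PBS or with S961 30 min before food came back at ZT12 (zeitgeber time, hours after lights on), and livers were taken at ZT14, so that the groups differ by S961 and share the meal. The labels write the dose as 44 nM per mouse and the methods of the study as 44 nmol/kg. The titles name S961 in all 4 libraries of the group, whereas the treatment field counts the compound's number upward from replicate to replicate, and the grouping follows the titles. Each library is 1 mouse.

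Other groups are used only beside this comparison. In the same design, fed mice received dex (dexamethasone, an agonist of the glucocorticoid receptor, GR, at 1 mg/kg) or dex plus S961, and unfed mice received PBS, with 4 libraries a group. The L-IRSdKO mice, on a C57BL/6J background, lack the insulin receptor substrates Irs1 and Irs2 where Alb-Cre is active, which is in hepatocytes, and their IRSfl controls carry the floxed alleles without Cre. Both of these groups had 4 libraries, were 10 weeks old at the start of restricted feeding, were fed and had dex, so that neither is a vehicle group. Lean mice on chow for 10 weeks gave 3 fed and 3 unfed libraries without an injection.

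After a meal, insulin binds its receptor on hepatocytes, the receptor substrates recruit PI3-kinase, and AKT is activated. AKT phosphorylates FOXO1, a forkhead transcription factor, which then leaves the nucleus, so that FOXO1 targets for glucose output are high in the unfed liver and low in the fed liver. Insulin also raises transcription of Srebf1, which encodes SREBP1c, the factor that drives fatty acid synthesis. The related factor SREBP2 drives cholesterol synthesis, and PPARα drives fatty acid oxidation in the unfed state. S961 given before the meal asks which of the transcripts that follow a meal depend on the insulin receptor, in liver or other tissues. The study reports raised blood glucose, serum insulin and serum nonesterified fatty acids in mice given S961. It proposes that the fatty acids likely rose through adipose tissue and could contribute to the regulation of G6pc, Angptl4 and Insig2. The part of these changes in the values below was not tested.

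FOXO1 peaks in the deposited lists were called in unfed liver and were not measured under S961, but they show where FOXO1 can bind near the genes whose RNA moved. Txnip, which encodes a protein that binds thioredoxin and restrains glucose uptake, rose 5.34-fold. Its promoter is shown because it holds a forkhead motif and a FOXO1 peak has its centre there. The motif and the peak come from different genome builds, and whether the motif lies inside the peak was not tested. On mm9, the centre of the peak lies at -133 bp and that of a GR peak at -181 bp from the start site. The 250 bases before the start site, taken from RefSeq on GRCm38.p6 (chr3:96557707-96557956, plus strand), are given 5′ to 3′ with the letters TGTTTAC, read on the other strand as GTAAACA, in capitals.
Txnip promoter: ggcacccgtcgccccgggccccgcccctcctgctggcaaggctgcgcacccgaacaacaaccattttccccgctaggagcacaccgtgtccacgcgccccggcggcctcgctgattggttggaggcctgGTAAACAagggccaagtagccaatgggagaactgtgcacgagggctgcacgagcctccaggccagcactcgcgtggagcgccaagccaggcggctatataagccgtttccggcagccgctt

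The motif starts at -121. Among the FOXO1 peaks of mm9 within 50 kb of genes that rose with S961, those near 5 named genes that hold the same motif are shown whole, each on the strand of its gene and with the motif in capitals. Slc25a47 encodes a mitochondrial carrier of hepatocytes, and its peak lies before the gene (chr12:110087884-110088063). Ehhadh encodes the bifunctional enzyme of peroxisomal β-oxidation, with the peak inside the gene (chr16:21782979-21783158). Got1 encodes cytosolic aspartate aminotransferase (chr19:43590991-43591170, inside the gene), and Il1rn the interleukin-1 receptor antagonist (chr2:24200279-24200458, inside the gene). Ppp1r3g encodes a glycogen-targeting subunit of protein phosphatase 1 (chr13:36051702-36051881, inside the gene).
Slc25a47, centre at -1366 bp: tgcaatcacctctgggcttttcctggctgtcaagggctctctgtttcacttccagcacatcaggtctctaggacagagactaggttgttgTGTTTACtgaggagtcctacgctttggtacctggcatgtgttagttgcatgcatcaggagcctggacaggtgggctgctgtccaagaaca
Ehhadh, centre at 4849 bp: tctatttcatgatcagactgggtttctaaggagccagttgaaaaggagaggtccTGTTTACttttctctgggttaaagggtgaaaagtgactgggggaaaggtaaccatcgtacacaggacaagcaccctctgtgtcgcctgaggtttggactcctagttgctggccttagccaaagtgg
Got1, centre at 8015 bp: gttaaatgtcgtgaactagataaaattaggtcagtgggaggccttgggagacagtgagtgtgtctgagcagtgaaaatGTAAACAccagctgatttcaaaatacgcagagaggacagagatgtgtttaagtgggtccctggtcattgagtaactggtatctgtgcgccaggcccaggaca
Il1rn, centre at 7995 bp: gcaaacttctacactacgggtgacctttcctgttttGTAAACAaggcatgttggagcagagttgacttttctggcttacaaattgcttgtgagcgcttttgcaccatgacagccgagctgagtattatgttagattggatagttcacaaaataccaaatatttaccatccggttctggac
Ppp1r3g, centre at 1083 bp: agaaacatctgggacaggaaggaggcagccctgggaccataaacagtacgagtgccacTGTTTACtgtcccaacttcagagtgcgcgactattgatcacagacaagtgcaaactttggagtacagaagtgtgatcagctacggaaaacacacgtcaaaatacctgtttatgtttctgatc

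TGTTTAC was the only motif searched, on both strands. It was in 18.8% of all 8546 FOXO1 peaks, in 19.0% of the 242 peaks within 50 kb of genes that rose and in 15.3% of the 98 near genes that fell. Of the RefSeq promoters, 4 of 84 for genes that rose held it (4.8%, namely Txnip, Lpin2, Pank1 and 4833411C07Rik), against 0 of 79 for genes that fell and 256 of 8866 for all genes tested (2.9%). A match of these letters is a description of the sequence and does not mark a site in use.

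The values are RPKM as deposited (reads per kilobase of transcript, scaled to library depth), and every log2 value is a difference of group means on the scale log2(RPKM + 0.5), tested with limma's moderated test over 11251 genes in a fit of all 20 injected libraries. The steps of low values give depths of 9.19 to 13.45 M reads in the 8 libraries, at which 0.5 RPKM in a 2-kb transcript is about 9.2 to 13.5 reads. Replicate 4 of each group carries library numbers of a separate, later series, and these 2 libraries stood apart from the other 6 on the first principal component (37.2% of the variance, -31.9 and -37.0 against -1.50 to 26.3). Results are therefore also given for replicates 1 to 3. Hepatocyte markers were high in every library, with sums of 57586 to 74543 RPKM with vehicle and 65768 to 72111 RPKM with S961. Markers of lymphocytes and adipocytes were below a mean of 0.5 RPKM in all cases, with Adipoq, Plin1 and Lep at 0 in all 8 libraries. After the filter on low values, 2 of 6 markers of neutrophils, 2 of 6 of cholangiocytes and 8 of 8 of endothelial cells were tested. For stellate, erythroid and pancreatic acinar cells, 7 of 8, 5 of 6 and 2 of 9 were tested. Markers of neutrophils (sums of 1.24 to 7.89 RPKM with vehicle and 0 to 2.06 with S961; Ly6g and Camp at 0), cholangiocytes (14.5 to 20.8 and 11.9 to 19.5), endothelial cells (80.2 to 97.8 and 80.1 to 84.5), stellate cells (51.1 to 105 and 56.4 to 92.6), erythroid cells (103 to 267 and 102 to 165) and pancreatic acinar cells (7.601 to 12.8 and 6.08 to 11.3; Prss1 and Amy2a5 at 0) had 0 genes past the threshold.

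With S961, G6pc and Txnip rose, as did 8 of 30 genes of fatty acid oxidation and ketogenesis and 4 of 23 genes of lipid droplets and lipases, whereas Srebf1, Cyp7a1 and 6 of 23 genes of cholesterol synthesis fell. At an adjusted p under 0.05, 106 genes rose (0.942% of the genes tested) and 108 fell (0.96%), and 1605 had an unadjusted p under 0.05. The rises ranged from 0.38 to 2.81 with a median of 0.82, and 37 of them were at least 1. The falls ranged from 0.30 to 2.22 in size with a median of 0.70, and 17 were at least 1. The 4 S961 values lay above all 4 vehicle values in 102 of the genes that rose and in 2.04% of all genes, and below them in 99 of the genes that fell and in 4.44% of all genes. For a gene without overlap the exact permutation test over the 8 libraries gives p = 0.0286, the smallest that 70 splits allow. Of the 214 genes, 43 overlap another gene, 35 of them on the opposite strand (Srebf1 with Rai1 and Csf1r with Hmgxb3, for example), and their reads cannot be told apart without strand. Over all genes, 3788 lay above 0 and 7440 below, and the median was -0.08. Median-ratio scaling moved it to -0.01, with 142 genes higher and 60 lower, so that the share of rises among the calls went from 49.5% to 70.3% (67.7% after quantile normalization).

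**Figure D1:**
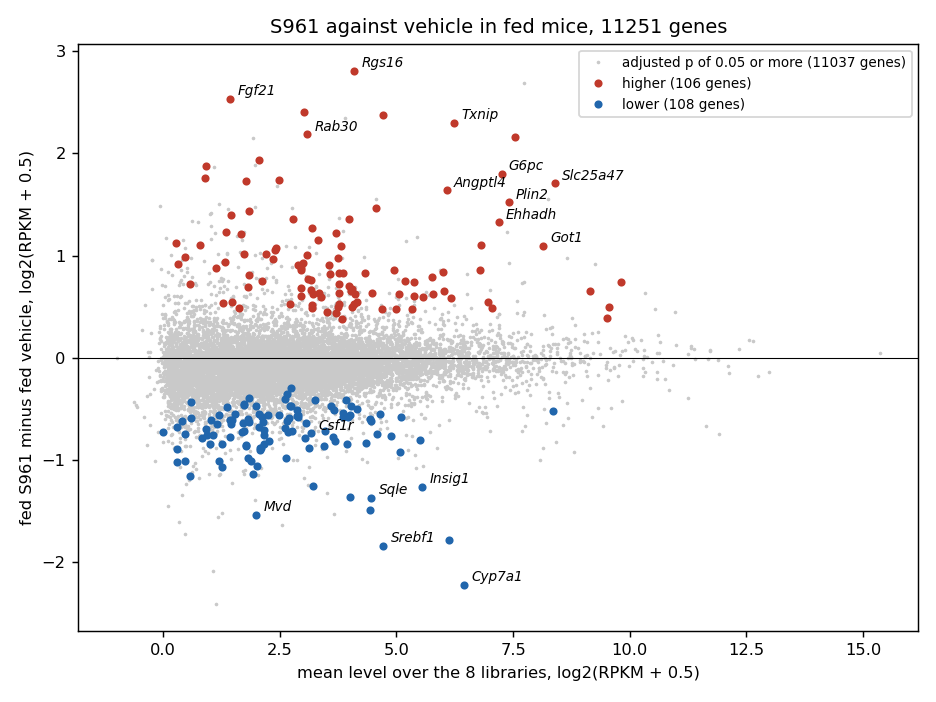
Difference between fed S961 and fed vehicle (y axis, log2(RPKM + 0.5)) against the mean level over the 8 libraries (x axis, same scale) for the 11251 genes tested. Red points rose (106), blue points fell (108) and grey points did not pass an adjusted p of 0.05. Rgs16 at 2.81 and Cyp7a1 at -2.22 were the extremes among the labelled genes.

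The counts depended on the other injected groups, which share their estimate of the spread with the comparison. In a fit of the 8 libraries alone, 24 genes passed, of which 16 rose and 8 fell, and 23 of them were among the 214. They included Txnip, Angptl4, Plin2, Cidec, Ehhadh, Rab30, Il1rn and Cyp26b1 among the rises and Srebf1, Mvd and S1pr1 among the falls. With replicates 1 to 3 only, 111 rose and 111 fell, and 134 of these 222 were among the 214.

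Genes of glucose output and FOXO1 targets were the first group. G6pc (NM_008061, chromosome 11, 101228875 to 101239217 of mm9), the phosphatase that releases free glucose from the hepatocyte, read 72.0, 29.99, 80.6 and 101 RPKM in vehicle replicates 1 to 4 and 153, 258, 236 and 284 RPKM with S961. All 4 S961 livers exceeded the highest vehicle liver, and the mean rose 3.28-fold (log2 1.80 ± 0.33 SE, adjusted p = 0.0083). Txnip (NM_001009935, chromosome 3, 96361880 to 96365806) read 26.8, 18.2, 23.6 and 25.5 RPKM with vehicle and 68.4, 156, 93.6 and 184 RPKM with S961, a rise of 2.30 ± 0.39 (adjusted p = 0.0042). The vehicle livers were close together and the S961 livers spread over a wide range above them. Gm15441, an antisense gene that overlaps Txnip on the opposite strand, rose by 2.37 ± 0.41 (adjusted p = 0.0056), and since the strand of counting is not given in the sources used here, reads of the pair cannot be told apart. Got1, which supplies oxaloacetate from aspartate, rose from 182 ± 48.4 to 380 ± 41.1 RPKM (SD, n = 4; log2 1.09, adjusted p = 0.039).

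Other genes tied to FOXO1 and gluconeogenesis did not pass. Pck1, the enzyme that makes phosphoenolpyruvate from oxaloacetate, read 579 to 731 RPKM with vehicle and 397 to 914 RPKM with S961 (log2 -0.16 ± 0.19, adjusted p = 0.785). Its S961 values fell on both sides of the vehicle values. Igfbp1, a binding protein of insulin-like growth factors, read 3.69, 3.28, 6.80 and 11.3 RPKM with vehicle and 7.58, 43.5, 7.37 and 21.3 RPKM with S961 (1.37 ± 0.56, adjusted p = 0.256). Pdk4, the kinase that shuts off pyruvate dehydrogenase, read 0.505 to 0.764 RPKM with vehicle and 1.28, 9.43, 2.94 and 10.0 RPKM with S961 (2.15 ± 0.56, adjusted p = 0.0559). The ranges of Pdk4 did not overlap, but 2 S961 livers carried most of the difference. Pdk4 passed in 5 of 20 alternatives, and Pck1 and Igfbp1 in none. Irs2, the receptor substrate that FOXO1 induces, was at 1.21 ± 0.717 and 2.46 ± 1.79 RPKM (adjusted p = 0.406). Of 29 tested genes of the FOXO list, 2 rose (G6pc and Txnip) and 1 fell (Pik3r1), with a median of 0.16 against -0.08 over all genes. Of 15 gluconeogenic genes, 2 rose (G6pc and Got1), with a median of 0.09. Of 25 genes of amino acid breakdown and the urea cycle none passed, with a lowest adjusted p of 0.0943 and a median of 0.03.

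**Figure D2:**
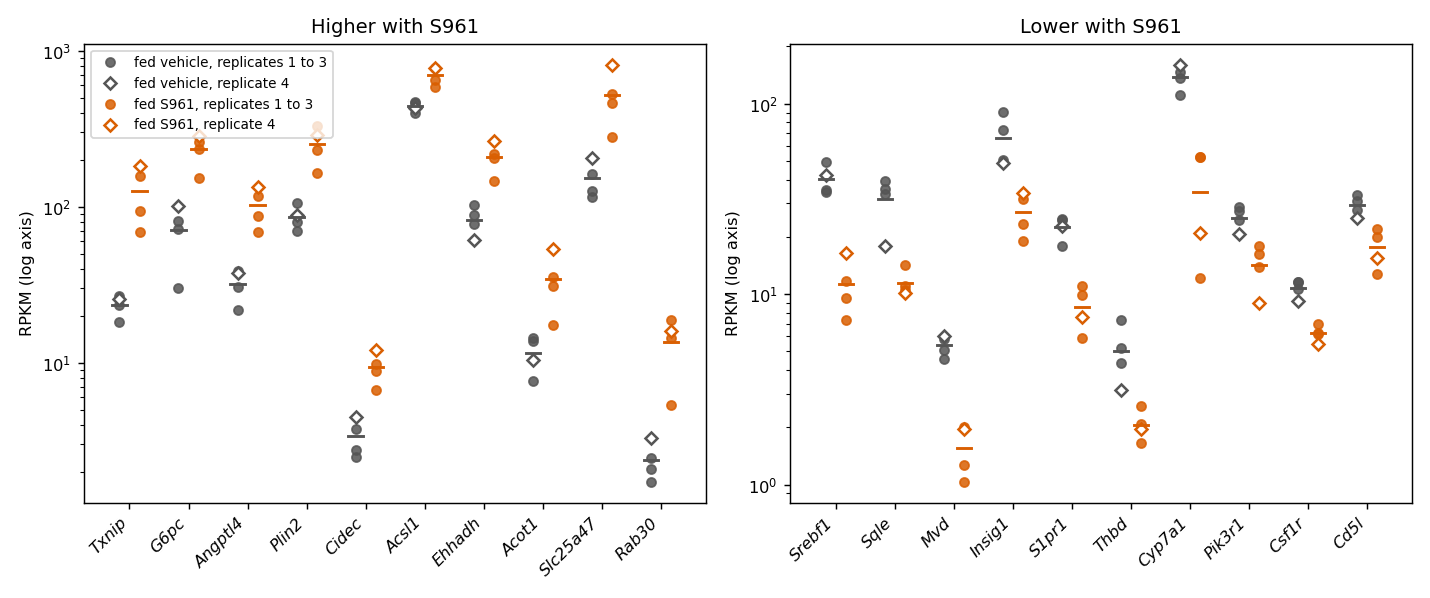
RPKM (y axis, log scale) of 10 genes that rose and 10 that fell, for each of the 4 vehicle livers (grey) and the 4 S961 livers (orange). Circles are replicates 1 to 3, open diamonds replicate 4 of the later library series, and bars the means; in each gene shown the 4 S961 values lie on 1 side of the vehicle values.

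Lipid droplet and fatty acid oxidation genes held rises and no falls. Angptl4 (NM_020581, chromosome 17, 33910695 to 33918520), a secreted inhibitor of lipoprotein lipase, read 30.5, 21.7, 38.8 and 37.4 RPKM with vehicle and 86.7, 118, 68.7 and 135 RPKM with S961 (1.64 ± 0.28, adjusted p = 0.0056). Plin2, which coats lipid droplets, read 79.8, 70.2, 105 and 88.2 RPKM with vehicle and 164, 330, 231 and 287 RPKM with S961 (1.52 ± 0.21, adjusted p = 0.001). In both genes the lowest S961 liver was above the highest vehicle liver. Cidec, which fuses lipid droplets, rose from 3.37 ± 0.930 to 9.36 ± 2.26 RPKM (adjusted p = 0.0021). G0s2, an inhibitor of the triglyceride lipase ATGL, read 51.5, 26.1, 61.0 and 177 RPKM with vehicle and 206, 298, 206 and 469 RPKM with S961 (2.16 ± 0.53, adjusted p = 0.0399). Its highest vehicle value belonged to replicate 4, in the later library series, and the call of G0s2 was lost in 9 of 20 alternatives. Of 23 tested genes of lipid droplets and lipases these 4 rose and none fell, with a median of 0.31 and 18 above 0.

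Of 30 genes of fatty acid oxidation and ketogenesis, 8 rose and none fell, and 27 lay above 0, with a median of 0.35. They included Ehhadh of peroxisomal oxidation, Acsl1, which activates fatty acids, the thioesterases Acot1 and Acot2, the carnitine carrier Slc22a5 and the hormone Fgf21. Ehhadh read 102, 89.0, 78.0 and 61.3 RPKM with vehicle and 147, 219, 204 and 264 RPKM with S961 (1.32 ± 0.23, adjusted p = 0.0054). Acsl1 read 463, 400, 469 and 432 RPKM with vehicle and 583, 651, 777 and 778 RPKM with S961 (0.65 ± 0.12, adjusted p = 0.0091). In both of these genes all 4 S961 livers lay above the vehicle livers. Fgf21 was listed at 0.539, 0, 0.085 and 0.230 RPKM with vehicle and at 1.41, 2.37, 4.55 and 8.44 RPKM with S961 (2.53 ± 0.44, adjusted p = 0.0056), so that its vehicle values rest on few reads. Acot1 rose from 11.6 ± 3.19 to 34.4 ± 14.9 RPKM and Acot2 from 0.896 ± 0.288 to 4.91 ± 3.63 RPKM, and reads of these close copies may be shared between them. Cyp4a14 and Cyp4a10, PPARα targets of ω-oxidation, had large but scattered differences of 2.69 and 1.56 that did not pass (adjusted p = 0.107 and 0.0513), with S961 values of 66.0 to 759 RPKM for Cyp4a14. Ppara itself was at 52.7 ± 9.24 and 69.1 ± 14.8 RPKM (adjusted p = 0.419).

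Further large rises came from genes outside these lists. Rgs16, a regulator of G protein signalling, had the largest, from 1.42, 4.72, 9.15 and 1.21 RPKM with vehicle to 12.8, 32.8, 15.7 and 55.2 RPKM with S961 (2.81 ± 0.53, adjusted p = 0.0093). Its levels varied widely in both groups. Fbf1, a protein of the cilium base, rose by 2.40 ± 0.54, but replicates 2 and 4 read 20.7 and 28.1 RPKM and replicates 1 and 3 only 4.24 and 2.23 RPKM. Rab30, a small GTPase of the Golgi, rose from 2.39 ± 0.667 to 13.6 ± 5.77 RPKM (adjusted p = 7.9e-04). Cyp26b1, which degrades retinoic acid, rose from 0.303 ± 0.203 to 2.48 ± 0.846 RPKM, Il1rn from 0.211 to 0.587 RPKM with vehicle to 1.54 to 3.52 RPKM with S961, and Lepr, the leptin receptor, from 2.07 ± 0.942 to 8.19 ± 3.13 RPKM. Slc25a47 rose from 152 ± 41.1 to 521 ± 221 RPKM (adjusted p = 9.9e-04). Tead1, a factor of the Hippo pathway that was picked after its value was seen for its low spread, read 2.36 to 3.31 RPKM with vehicle and 6.06 to 7.22 RPKM with S961 (1.06 ± 0.13, adjusted p = 5.2e-04).

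Srebf1 and Insig1 fell, but most genes of fatty acid synthesis did not pass. Srebf1 (NM_001313979, chromosome 11, 60012591 to 60036083) read 34.3, 35.2, 49.6 and 42.1 RPKM with vehicle and 9.58, 11.7, 7.28 and 16.5 RPKM with S961 (-1.84 ± 0.22, adjusted p = 5.2e-04). The 4 S961 livers were far below the lowest vehicle liver. Insig1, which holds SREBPs in the endoplasmic reticulum and is itself an SREBP target, fell from 65.8 ± 20 to 27.0 ± 7.08 RPKM (-1.26 ± 0.19, adjusted p = 0.002). Its relative Insig2 read 32.6 to 65.1 RPKM with vehicle and 49.7 to 106 RPKM with S961 (0.86 ± 0.23, adjusted p = 0.0632). Fasn, the fatty acid synthase, read 32.8 to 40.5 RPKM with vehicle and 28.4 to 39.9 RPKM with S961 (-0.13 ± 0.13, adjusted p = 0.729). Scd1, the desaturase, read 644 to 1628 RPKM and 1523 to 2024 RPKM (0.47 ± 0.29, adjusted p = 0.514). Of 27 lipogenic genes, 2 fell (Srebf1 and Insig1) and 1 rose, Elovl5, an elongase of polyunsaturated fatty acids (1.11 ± 0.22, adjusted p = 0.0104), and the median was 0.01. Genes of glycolysis and fructose use (19 tested) had a median of 0.12.

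Among cholesterol synthesis genes and SREBP2 targets, 6 of 23 fell. Sqle, squalene epoxidase, read 39.1, 33.7, 35.9 and 17.9 RPKM with vehicle and 14.3, 10.5, 11.1 and 10.2 RPKM with S961 (-1.37 ± 0.23, adjusted p = 0.0042). Mvd, mevalonate diphosphate decarboxylase, read 4.59, 5.12, 5.84 and 6.02 RPKM with vehicle and 2.00, 1.03, 1.27 and 1.96 RPKM with S961 (-1.54 ± 0.19, adjusted p = 5.2e-04). Mvd differed by -1.58 in replicates 1 to 3 and by -1.40 in replicate 4, without overlap. Lss, lanosterol synthase, fell by 0.59 ± 0.11 (adjusted p = 0.0104). None of the 23 rose and 21 lay below 0, with a median of -0.41 (-0.56 in replicates 1 to 3 and -0.08 in replicate 4).

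Cyp7a1 (NM_007824, chromosome 4, 6192759 to 6202780), the rate-limiting enzyme of bile acid synthesis, had the largest fall. It read 136, 112, 147 and 160 RPKM with vehicle and 52.8, 12.1, 52.5 and 20.9 RPKM with S961 (-2.22 ± 0.37, adjusted p = 0.0041). The highest S961 liver was below the lowest vehicle liver. It was the 1 gene of 21 in the bile acid and sterol transport list that passed, and Cyp8b1, which sets the ratio of bile acids, read 103 to 252 RPKM and 218 to 341 RPKM (0.74 ± 0.22, adjusted p = 0.0954). S1pr1, a receptor for sphingosine-1-phosphate on endothelial and immune cells, fell by 1.37 ± 0.20 (adjusted p = 0.0017), and Thbd, thrombomodulin of endothelial cells, by 1.06 ± 0.20 (adjusted p = 0.0092). Of 8 endothelial markers 7 lay below 0, with a median of -0.20 against -0.08 over all genes, and none passed. The part of cell content in the falls of S1pr1 and Thbd was not tested. Plekha7 and Cks1b, and Ctla2b, which has close relatives in the genome, fell by 1.16, 1.13 and 1.07.

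Among the components of the insulin pathway, Pik3r1, the regulatory subunit of PI3-kinase, read 27.4, 28.6, 24.4 and 20.8 RPKM with vehicle and 17.9, 13.9, 16.3 and 9.01 RPKM with S961 (-0.83 ± 0.18, adjusted p = 0.0239). Gsk3b, a kinase that AKT inhibits, fell from 6.43 ± 0.565 to 4.77 ± 0.722 RPKM (-0.40 ± 0.10, adjusted p = 0.0468), a call that was lost in 12 of 20 alternatives. These 2 fell of 27 tested, none rose, and the median was -0.08. The receptor Insr was at 16.3 ± 0.867 and 19.7 ± 3.08 RPKM (adjusted p = 0.409), and Foxo1 at 10.6 ± 0.531 and 9.62 ± 1.28 RPKM (adjusted p = 0.55). Ppp1r3g was the only one of 15 glycogen genes that passed, from 0.294, 1.27, 0.554 and 3.81 RPKM with vehicle to 4.98, 6.19, 3.56 and 8.69 RPKM with S961 (1.94 ± 0.49, adjusted p = 0.0495). Its ranges overlapped, and the call was lost in 12 of 20 alternatives.

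Further lists had few or no calls. ER chaperone and unfolded protein response genes lay below 0 in 24 of 25 cases (7440 of 11251 over all genes), with a median of -0.46. None passed, and the lowest adjusted p by limma was 0.0559 for Hyou1 (56.8 ± 12.2 and 27.2 ± 8.59 RPKM). The S961 values lay below all vehicle values in 10 of the 25, against 4.44% of all genes. In L-IRSdKO livers 17 of the 25 were lower and 0 higher, against 9.22% lower and 9.14% higher over all genes. In lean mice 16 were higher and 1 lower after the meal, against 16.4% and 7.48% over all genes. The median was -0.29 in replicates 1 to 3 and -1.06 in replicate 4. With a library series term in the fit, 6 of the 25 fell, among them Hyou1, Pdia6 and Sdf2l1 (adjusted p = 0.033, 0.026 and 0.026). In that fit 276 of all 11251 genes fell. Heat shock and cold-inducible genes had a median of -0.35, with -0.10 in replicates 1 to 3 and -0.77 in replicate 4, and 0 of 17 passed. Of the integrated stress response 1 of 20 fell, the amino acid transporter Slc7a5 (-0.68 ± 0.15, adjusted p = 0.0293), which was at a mean of 1.00 RPKM with vehicle. Of 20 classic GR targets 1 rose, Angptl4, and Fkbp5, Tat and Klf15 did not pass (-0.26, -0.49 and -0.27, adjusted p = 0.566, 0.317 and 0.499). Of 25 autophagy genes 1 rose, the receptor Optn (0.48 ± 0.12, adjusted p = 0.0395), while the kinase Ulk1 did not pass (0.65 ± 0.17, adjusted p = 0.059). Ulk1 passed in 7 of 20 alternatives. Of 23 acute phase genes 1 rose, Il1rn. Clock genes (0 of 19), ribosome biogenesis (0 of 30), the IGF axis (0 of 14) and immediate-early genes (0 of 16) held no call by limma, with lowest adjusted p-values of 0.0821, 0.421, 0.256 and 0.132.

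**Figure D3:**
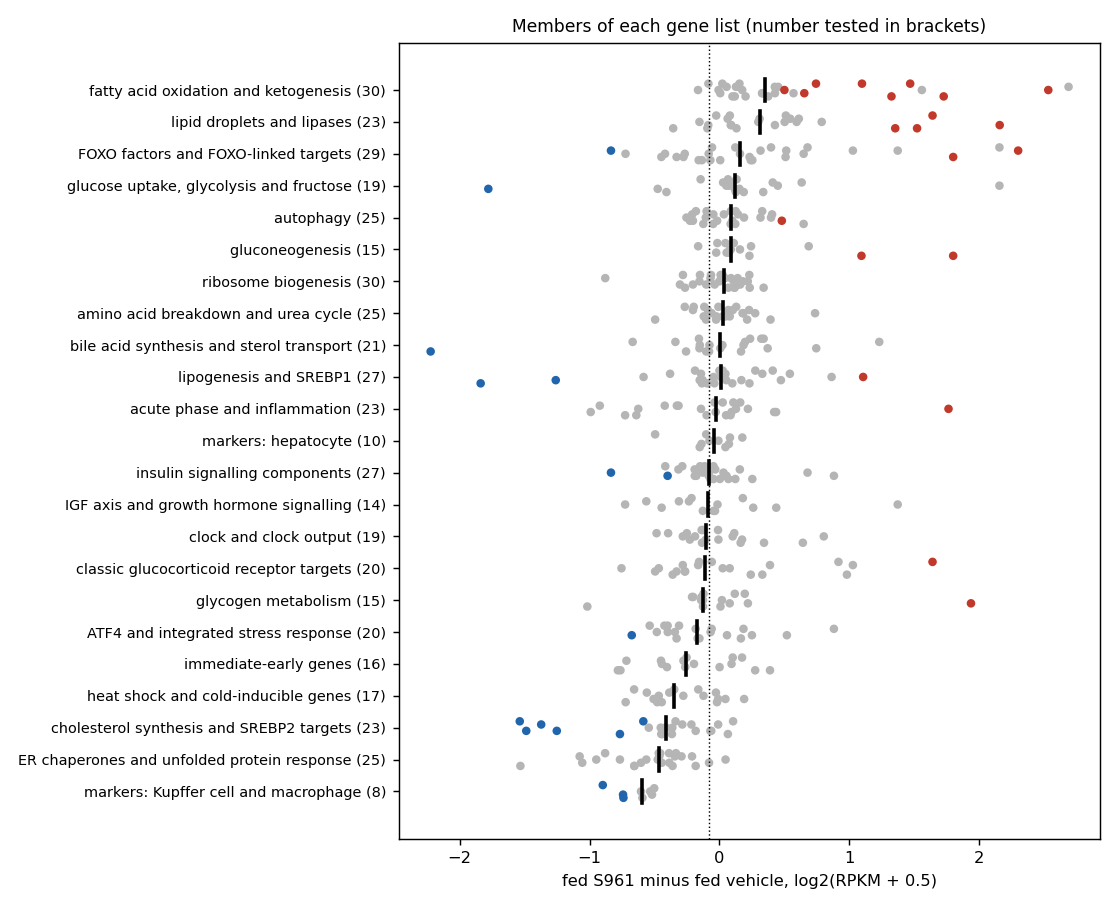
Difference between fed S961 and fed vehicle (x axis, log2(RPKM + 0.5)) for every tested member of 21 gene lists and of the hepatocyte and Kupffer cell markers (rows, with the number tested). Red points rose and blue points fell at an adjusted p under 0.05, grey points did not pass, black bars are list medians, and the dotted line is the median of all genes (-0.08); among these rows the medians run from 0.35 for fatty acid oxidation to -0.60 for Kupffer cell markers.

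Of 8 markers of macrophages, 3 fell with S961. In whole liver, fewer cells of a type and less RNA per cell cannot be told apart. The 8 markers of Kupffer cells (resident liver macrophages) and macrophages summed to 141, 148, 125 and 99.6 RPKM with vehicle and 99.7, 87.0, 71.6 and 67.3 RPKM with S961, so that the sums just overlapped, and all 8 were below 0, with a median of -0.60. Adgre1 (F4/80), Csf1r (the receptor of the macrophage growth factor CSF1) and Cd5l fell by 0.90 ± 0.20, 0.74 ± 0.18 and 0.74 ± 0.18 (adjusted p = 0.0232, 0.0362 and 0.0417). Csf1r read 11.6, 11.6, 10.7 and 9.18 RPKM with vehicle and 6.997, 6.21, 6.25 and 5.51 RPKM with S961. After median-ratio scaling or quantile normalization 1 of the 8 passed, and the 3 calls were lost in the fit of the 8 libraries alone. With a library series term 6 of the 8 fell, against 276 of all 11251 genes. Clec7a and Cd300e, receptors of myeloid cells, fell by 1.01 and 1.02. They were named for low p-values in the test with against without dex. That test subtracts this same S961 difference, so their falls are not separate evidence. Siglec1, Cybb and Ctss, macrophage genes picked after their values were seen, fell by 0.75, 0.71 and 0.56. The marker sum was 69.0 to 87.0 RPKM in unfed vehicle livers, 64.7 to 105 RPKM with dex and 75.7 to 88.0 RPKM with dex plus S961, so that among the 5 injected groups the fed vehicle livers had the highest mean (128 ± 21.4 RPKM, against 80.2, 81.4, 83.9 and 87.5). The part of macrophage content in the falls of other genes was not tested.

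The later library series gave the same signs for most calls. Of 111 genes that rose in replicates 1 to 3 and had a value in both fits, 104 (93.7%) lay above 0 in the replicate 4 pair, and of 110 that fell, 102 (92.7%) lay below 0. Over all genes, 36.8% lay above and 62.7% below 0 in that pair. The medians were 0.76 and 0.73 for the rises, and -0.72 and -0.52 for the falls. The replicate 4 pair has 1 mouse a group and so no test of its own. Rgs16 (2.07 in replicates 1 to 3 and 5.03 in replicate 4), Fgf21 (2.17 and 3.61) and Ehhadh (1.06 and 2.10) differed more in the later series, and Insig1 (-1.51 and -0.51) less.

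**Figure D4:**
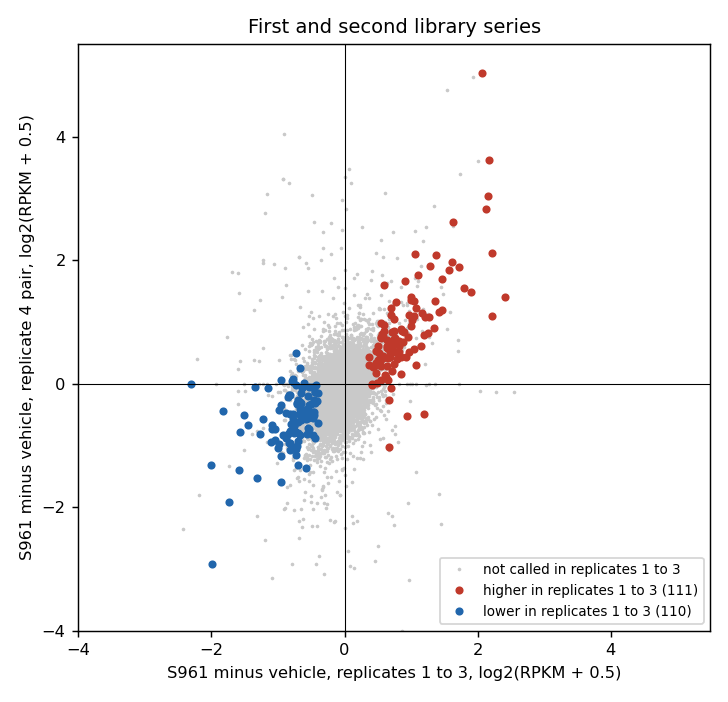
Difference between S961 and vehicle, log2(RPKM + 0.5), in replicates 1 to 3 (x axis) and in the replicate 4 pair (y axis). Red and blue points are the 111 and 110 genes that rose and fell in replicates 1 to 3; 104 of the red points lie above 0 on the y axis and 102 of the blue points below it.

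S961 was also given with dex, in mice that share no library with the comparison above. The comparisons with and without dex come from the same fit, however, and share its estimate of each gene's spread. A gene with a small spread is easier to call in both, so that the shared calls below are not overlaps of independent tests. Dex plus S961 against dex raised 196 genes (1.74%) and lowered 137 (1.22%) by limma. Of the 106 rises with S961 alone, 72 were called higher there (67.9%, which is 36.7% of the 196) and 105 lay above 0, with a median of 0.77. Of the 108 falls, 38 were called lower (35.2%, which is 27.7% of the 137) and 100 lay below 0, with a median of -0.44. Plin2 rose by 1.39, Cidec by 1.67, Txnip by 2.12, G6pc by 1.4 and Angptl4 by 1.88, and Srebf1 and Mvd fell by 1.88 and 1.51. In the cholesterol list 9 of 23 genes fell. Of the 8 macrophage markers none passed with dex (median -0.12), and Csf1r and Cd5l stood at -0.07 and 0.08. The difference between the S961 effects with and without dex was itself tested, and 0 genes passed by limma, with 513 at an unadjusted p under 0.05. The lowest p-values were those of Sesn1, Taf2, Clec7a, Ms4a8a, Gm30505 and Cd300e, with differences of 1.07, 1.08, 1.54, 1.31, -0.60 and 1.30 and adjusted p-values of 1 after rounding. For Cyp7a1 (-2.22 without and -1.19 with dex) and Fgf21 (2.53 and 1.17), the differences between the effects did not pass either.

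L-IRSdKO livers, from other mice and with dex in both groups, had 1175 genes higher (9.06%) and 1078 lower (8.31%) than IRSfl livers. Irs1 was at 4.03 ± 1.22 RPKM in IRSfl and 0.199 ± 0.082 RPKM in L-IRSdKO livers (adjusted p = 9.2e-04), whereas Irs2 was low and scattered in both (2.19 ± 2.31 and 0.773 ± 0.337 RPKM, adjusted p = 0.308). Of the 106 rises with S961, 54 were higher in L-IRSdKO (50.9%) and 1 lower, and of the 108 falls 29 were lower (26.9%) and 13 higher. These are 5.26% and 2.8% of the genes called in L-IRSdKO and tested in both. Lepr went from 3.77 ± 1.14 to 165 ± 57.7 RPKM, Ppp1r3g from 1.29 ± 1.54 to 49.99 ± 27.3 RPKM and Il1rn from 0.736 ± 0.374 to 25.2 ± 14.1 RPKM, each a larger difference than S961 gave, though the experiments were not compared by a test. Igfbp1, which did not pass with S961, rose from 51.2 ± 19.0 to 488 ± 93.5 RPKM. G0s2, which rose with S961, was lower in L-IRSdKO (-1.87, adjusted p = 0.0069), and Thbd, which fell with S961, was higher (1.54, adjusted p = 0.0024). Of the 8 endothelial markers, 5 were also higher in L-IRSdKO and 0 lower (median 0.56), and their part in the Thbd difference was not tested. In the cholesterol list 19 of 23 genes fell, and the macrophage markers lay above 0 in 8 of 8 cases with 1 call.

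In lean, uninjected mice, 1841 genes were higher (16.1%) and 832 lower (7.28%) after the meal, a split that became 1169 and 1185 with median-ratio scaling and 1177 and 1150 with quantile normalization. Of 104 rises with S961 that were tested there, 41 were lower after the meal (39.4%) and 1 was higher, and of 106 falls 39 were higher (36.8%) and 4 lower. They make up 4.94% and 2.15% of the genes called by the meal and tested in both. Igfbp1 fell by 6.22 with the meal, Rgs16 by 4.07, Angptl4 by 2.63 and Pck1 by 2.55, and Srebf1 rose by 2.60. Plin2 and Cidec, which rose with S961, differed by 0.10 and -0.05 between fed and unfed lean mice (adjusted p = 0.848 and 0.968). Unfed against fed vehicle livers had 65 genes higher (0.578%) and 287 lower (2.55%), but the fed vehicle livers serve in both comparisons, so that values are only set side by side. Srebf1 differed by -1.27 in unfed and by -1.84 in S961 livers from the same controls, G6pc by 1.6 and 1.80, Slc25a47 by 1.29 and 1.71, Plin2 by 0.31 and 1.52, Igfbp1 by 4.08 and 1.37 and Pck1 by 1.02 and -0.16.

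**Figure D5:**
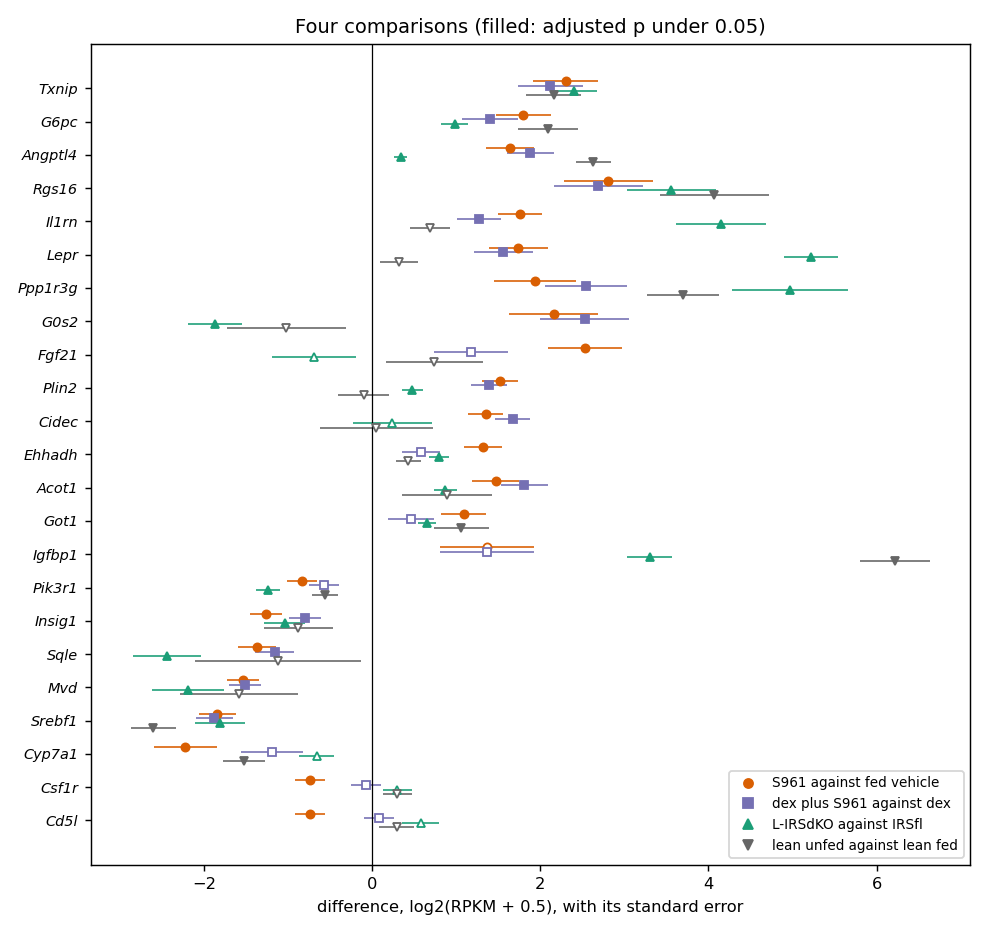
Difference in log2(RPKM + 0.5), with its standard error, of 23 genes (rows) in S961 against fed vehicle, dex plus S961 against dex, L-IRSdKO against IRSfl, and lean unfed against lean fed livers. Filled symbols passed an adjusted p of 0.05 in that comparison; Txnip lies above 2 and Srebf1 below -1.8 in all 4.

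Genes that rose with S961 often lay near FOXO1 and GR peaks of unfed liver. A FOXO1 peak was within 50 kb of the start site in 90 of 103 genes that rose (87.4%), in 54 of 108 that fell (50%) and in 51.0% of the 10880 genes tested with a position on mm9. For GR, the shares were 85.4%, 52.8% and 48.1%. Genes of higher expression have more such peaks. Among the 3667 genes that averaged 10 RPKM or more (median 22.3 RPKM), 63.5% had a FOXO1 and 62.6% a GR peak. The genes that rose had a median level of 12.8 RPKM against 5.7 RPKM over all genes. The part of expression level in these shares was not tested. The lists (8546 FOXO1 and 10446 GR peaks) hold positions that were concordant between replicates and carry no signal under S961. Near named genes, the closest FOXO1 peak was 33 bp from the start site of G6pc, at -88 bp of Rab30 and at -200 bp of Cyp7a1, which fell. No FOXO1 peak lay within 50 kb of Mvd, Sqle or Csf1r.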

How the data were processed

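RNA was measured in whole livers by sequencing of poly(A) RNA. The submitters' processing notes name STAR, HOMER and mm9. The authors normalized their reads, and the deposited table gives RPKM for each RefSeq transcript (35707 IDs, of which 35407 have a symbol). The authors tested their own counts with DESeq2, and their FOXO1 and GR peaks were concordant between replicates. The strand of counting is not given in the sources used here. For each symbol the RefSeq ID with the highest mean was kept, genes averaging 0.5 RPKM or more across the 20 injected libraries were tested, and limma 3.58.1 (limma-trend, R 4.3.3) was fitted to log2(RPKM + 0.5) over the 5 injected groups, with Benjamini-Hochberg adjustment and a threshold of 0.05. L-IRSdKO and lean mice were fitted on their own. Columns of values without a sample numbered 0.

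The members and lists were chosen with earlier results of these data known. Named genes were the 12 largest rises and 12 largest falls without overlap and with at least 1 RPKM in the higher group, genes the study names, up to 5 genes of lowest adjusted p (or best known) per list, and the 6 lowest p-values of the test with against without dex. Other genes are said to be picked after their values were seen, or are further members of a list. Peaks were assigned within 50 kb of start sites on mm9. Alternatives were other pseudocounts, filters, scalings, a replicate block, a library series term, and leaving out libraries. Depth limits genes near 0.5 RPKM, which rest on about 9.2 to 13.5 reads in a 2-kb transcript. Some genes are not reported here.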

Additional observations from a re-analysis of the deposited data

Results flagged for a closer look

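In 298 groups of 4 libraries (149 named genes, vehicle and S961), 16 groups held a library whose gap to the nearest of the others exceeded Dixon's 95% limit, and chance gives about 1 in 20. With vehicle, replicate 4 was the highest for Klf15 (64.1 RPKM) and Bhlhe40 (46 RPKM), and the lowest for Slc16a1 (6.43 RPKM), Ldha (186 RPKM), Optn (29.1 RPKM) and Trf (4313 RPKM). Vehicle replicate 3 was the highest for Gabarapl2 (6.55 RPKM) and vehicle replicate 1 the lowest for Socs3 (2.67 RPKM).

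With S961, replicate 1 was the lowest for Lepr (3.54 RPKM) and Apoa4 (96.9 RPKM), and replicate 3 the lowest for Cyp26b1 (1.23 RPKM), Klf15 (27.3 RPKM) and Dusp1 (9.54 RPKM). Replicate 2 was the highest for Spp1 (17.4 RPKM). Replicate 4 was the highest for Nr1d1 (14 RPKM) and the lowest for Trf (3413 RPKM). In total 8 of the 16 were in replicate 4, the separate library series, whose part in these values was not tested.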

How the results depend on the processing

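For S961 against vehicle (106 genes higher and 108 lower), median-ratio scaling left 60 lower and quantile normalization 63. The fit of the 8 libraries alone called 16 higher and 8 lower. A library series term gave 202 higher and 276 lower. Leaving out 1 library gave 64 to 136 higher and 43 to 145 lower, and vehicle replicates 1, 2 and 3 and S961 replicates 2 and 4 were those whose absence lowered a count by more than 1.5 times (65 and 48, 71 and 43, 78 and 68, 64 and 62, 66 and 50). Other pseudocounts, filters on low values, the sum over RefSeq IDs and the fit without a variance trend stayed within 1.5 times. In replicates 1 to 3 the test with against without dex called 4 genes, Cyp2c37 (1.23), Akr1c20 (1.00), Aldh1a1 (0.88) and Arrdc2 (1.58), each at an adjusted p of 0.0484, and the cause was not tested.

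With a replicate block, S961 gave 196 higher and 236 lower, which hold all 214 genes, and L-IRSdKO 756 higher and 688 lower. Same-numbered vehicle and S961 libraries correlated at -0.02, 0.03, -0.12 and 0.61 in their deviations from the group means. The 0.61 belonged to replicate 4 of each group, the separate library series, and was the highest between any vehicle and S961 library. Number 4 therefore marks a series that both groups share, for which the main fit has no term. The other same-numbered values were low, and vehicle replicate 1 with S961 replicate 3 reached 0.46. The group means include replicate 4, so that these values cannot settle whether replicates 1 to 3 are paired.

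Leaving out 1 library gave 546 to 1516 genes higher and 534 to 1505 lower for L-IRSdKO, moved over 1.5 times by L-IRSdKO replicates 2, 3 and 4 and IRSfl replicates 2 and 4. For lean fed against unfed it gave 1171 to 1552 higher and 526 to 717 lower, moved over 1.5 times by fed replicate 2 and unfed replicate 2. Median-ratio scaling gave 1169 higher and 1185 lower there, and quantile normalization 1177 higher and 1150 lower. Within 20 and 100 kb, a FOXO1 peak was near 70.9% and 95.1% of rises and 28.7% and 68.5% of falls, and a GR peak near 62.1% and 93.2% of rises and 34.3% and 68.5% of falls.

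Of 45 named genes that passed, 12 passed in every alternative in which they were tested (among them Cyp26b1 and Il1rn in 19, since they are below the filter of 2 RPKM, and in 20 Angptl4, Cidec, Ehhadh, Mvd, Plin2, Rab30, S1pr1, Srebf1 and Txnip) and 33 were lost in at least 1. Gsk3b and Ppp1r3g were lost in 12, and Csf1r, Cd5l and Clec7a in 10. G0s2, Cks1b, Optn and Slc7a5 were lost in 9, Got1 and Fbf1 in 8 and Acot2 in 7. Of 104 named genes that did not pass, 28 passed in at least 1. No named gene that passed changed sign.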
